A study of Mus musculus with 1037 samples.

Results

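The 10 genes described here encode the αv integrins and the secreted proteins that reach them on phagocytic cells. They are the bridging ligands *Mfge8* and *Edil3*, the thrombospondins *Thbs1* and *Thbs2*, the alpha subunit *Itgav*, the beta subunits *Itgb3*, *Itgb5*, *Itgb6* and *Itgb8*, and the thrombospondin receptor *Cd36*. They were picked by name out of the 55335 genes of the count table, each by the identifier that the mouse annotation pairs with its symbol. Single hair follicle cells were sorted from the skin of wild type mice and sequenced by Smart-seq2, a method that reads whole polyadenylated transcripts from one cell per well. LOS holds cells of the lower outer root sheath (ORS) at AnaVI, the end of the growth phase. MOS and UOS are labelled upper-middle ORS of the same stage. The P17f plates hold upper ORS at CatVI, and OSalive and OSapop hold upper ORS at CatVII, both in the late regression phase of the follicle. The plates carry Phago or NonPhago and alive or apop in their names, and the criteria behind these words are not given in the sample labels. Cells of 3 to 6 animals were pooled for each stage before sorting, so that every sort or plate is treated as 1 pool with no replicate and no value below has an error between animals. The sorts of a stage may share animals. Per the methods, the sort left out cells positive for Sca1 and for the lineage markers CD31, CD117, CD140a and CD45 and kept CD34+ Itga6+ cells. The paper's gating scheme for these libraries describes alive cells as negative for annexin V, a stain of apoptotic cells. It does not name the words alive and apop of the sample labels.

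Integrins are pairs of an alpha and a beta subunit that bind extracellular ligands. The αv subunit, encoded by *Itgav*, pairs with several beta subunits, and the pair decides the ligand. MFG-E8 and EDIL3 bind phosphatidylserine on dying cells and, through an RGD motif, αvβ3 and αvβ5 on the cell that engulfs them, while thrombospondin 1 can bridge corpses to αvβ3 and CD36 on macrophages. The pairs αvβ6 and αvβ8 bind latent TGF-β and set it free or expose it, and β6 is mostly an epithelial protein.

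*Itgb6* and *Itgb8* are the members with the clearest gaps between sorts among those found in many cells, and the 250 bases upstream of their annotated starts are shown so that these regions can be read beside the values. The sequences are from RefSeq in build GRCm38.p6, in which 7 of the 10 genes had an entry. The *Itgb6* sequence is that of the outer of 2 annotated starts and lies on the minus strand at chr2:60722604-60722853, and the *Itgb8* sequence lies on the minus strand at chr12:119238277-119238526. Capitals mark the matches to any of 4 motifs searched on both strands, the GC box GGGCGG, the CCAAT box, the nuclear receptor core motif AGGTCA and the AP-1 site TGANTCA.
Itgb6: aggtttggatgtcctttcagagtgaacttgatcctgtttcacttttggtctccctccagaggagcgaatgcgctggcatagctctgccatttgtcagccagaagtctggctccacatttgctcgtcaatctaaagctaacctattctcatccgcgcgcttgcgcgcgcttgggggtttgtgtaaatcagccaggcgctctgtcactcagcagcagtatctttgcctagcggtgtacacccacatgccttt
Itgb8: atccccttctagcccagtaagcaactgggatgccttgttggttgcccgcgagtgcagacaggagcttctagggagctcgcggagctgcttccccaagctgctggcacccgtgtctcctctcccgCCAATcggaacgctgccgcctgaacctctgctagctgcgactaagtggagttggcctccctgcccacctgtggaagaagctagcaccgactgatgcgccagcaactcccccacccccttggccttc
The *Itgb8* window held 1 match, a CCAAT box, and the *Itgb6* window held none of the 4. Among all 32851 such windows, 33.8% held a CCAAT box, 32.7% a GC box, 14% AGGTCA and 6.75% the AP-1 site. The 2 windows shown were alike in CpG content, with 11 and 12 CpG dinucleotides against a median of 6 over all windows. The window of the other annotated *Itgb6* start held 3, and which start these cells use was not tested.

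Cells with at least 2000 detected genes were used. This left 463 cells of 9 pools, with 83.6% of the sequenced cells of UOS, 80.1% of OSalive and 65.2% of OSapop. It left 39 cells of LOS (41.9%) and 38 of MOS (52.8%). Of P17f plates 1, 2, 5 and 6 it left 19, 9, 15 and 14 cells (21.6%, 12.3%, 17.6% and 20.3%), while no cell of plates 3 and 4 passed. The pools held from 1840012 counts (plate 6) to 287377663 counts (OSalive), and the median depth per cell ran from 90483 to 2182588 counts. All 8 outer root sheath markers of a fixed list had counts in all 9 pools. They summed to 1061 CPM in plate 2, 1358 in LOS, 4084 in UOS and 6607 in plate 5. In LOS every listed marker of the other cell types named below also had counts, and its fibroblast markers summed to 1405 CPM. The gene of the bulge marker CD34 was at 1.46 to 9.71 CPM (counts per 1000000 gene counts) in the CatVI plates, at 80.55 CPM in UOS and at 111.1 CPM in OSalive. Cells in which the summed counts of immune, endothelial, fibroblast, melanocyte, adipocyte, pericyte and muscle markers exceeded those of *Krt5*, *Krt14*, *Krt15* and *Krt17* made up 25.6% of LOS, 33.3% of plate 2 and 10.5% of plate 1. In the other 6 pools they made up 3.57% or less, and in MOS and plates 5 and 6 there was none. These are counts of transcripts in wells sorted by the gate above, and what these cells are was not tested.

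Per kilobase of transcript the highest of the 10 in all 9 pools was *Thbs1* (ENSMUSG00000040152, chromosome 2 from 117941974 to 117957616, GRCm39), which encodes a large matricellular glycoprotein. It stood at 485 CPM in LOS (95% Poisson interval 472 to 498), 588 CPM in MOS (571 to 604) and 634 CPM in UOS (628 to 640). In the CatVI plates it stood at 1141 CPM in plate 1, 786 in plate 2, 230.5 (216.6 to 244.9) in plate 5 and 583 (548 to 619) in plate 6. In CatVII it was at 603 CPM in OSalive and 582 CPM in OSapop. Of the 9 pools, 7 thus lay between 485 and 786 CPM, and the highest and the lowest were both plates of CatVI labelled Phago. The high value of plate 2 rested on 1 cell, which gave 83.4% of its *Thbs1* counts. Intervals here and below cover counting error only, and reads are not counted by molecule. *Thbs1* was also the member found in the most cells, 408 of 463. With each cell thinned to 50000 counts, so that depth is alike, it was found in 95.5% of UOS cells, 87.1% of OSalive and of OSapop cells, 78.3% of 23 LOS cells and 78.1% of 32 MOS cells. Values in single cells were wide, with a median of 462 CPM and a highest value of 4925 CPM in UOS.

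*Thbs2* (ENSMUSG00000023885, chromosome 17 from 14885761 to 14914528), a close relative with much of the same domain order, was present in few cells. Its summed level was 12.5 CPM in LOS, 12.9 in MOS, 11.9 in UOS, 14.6 in OSalive and 15.8 in OSapop, a narrow range over 5 pools. These sums came from 12 cells of LOS, 2 of MOS, 18 of UOS, 14 of OSalive and 7 of OSapop, and a single cell gave 91.8% of the counts in MOS and 81.2% in OSapop. In CatVI it had 11 counts in 2 cells of plate 1, 13 in 2 cells of plate 6 and none in plates 2 and 5. The 3 cells with the most *Thbs2* counts, 1217 and 1171 in OSalive and 935 in OSapop, each had between 3026 and 7573 *Krt5* counts.

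*Mfge8* (ENSMUSG00000030605, chromosome 7 from 78783515 to 78798825), which encodes the bridging ligand MFG-E8, was found in 374 of 463 cells. It stood at 85.4 CPM (84.3 to 86.45) in OSalive, 80.45 CPM (78.3 to 82.6) in UOS and 76.6 CPM (74.6 to 78.6) in OSapop. It was lower in the other 6 pools, at 49.9 CPM in LOS, 46.9 in MOS, 55.8, 50.3 and 53.6 in plates 1, 2 and 5, and 30.4 (22.99 to 39.52) in plate 6. The intervals of the top 3 did not overlap those of the other 6. Those of LOS, MOS and plates 1, 2 and 5 overlapped along the order of their levels. The pools at the top were also the 3 deepest, and after thinning to equal depth *Mfge8* was found in 76.6% of UOS cells, 69.4% of OSapop, 66.9% of OSalive, 73.9% of LOS and 68.75% of MOS, with overlapping intervals. In plates 1, 2, 5 and 6 it was found in 77.8%, 37.5%, 73.3% and 33.3% of the thinned cells, and the interval of plate 6 (9.93 to 65.1) lay below that of UOS (67.6 to 84.1).

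*Edil3* (ENSMUSG00000034488, chromosome 13 from 88969142 to 89471904), the other bridging ligand, was nearly absent. It had 23 counts in 6 of 463 cells, and 14 of them were in 1 LOS cell with 838 counts of the melanocyte gene *Pmel*. OSalive had 0 counts, for which the exact intervals reach 2.91% of cells with a count and a summed level of 0.0128 CPM. The floor of 3 counts would give 2.4% and 0.0104 CPM. Cells that hold the transcript but gave no count are not limited by this.

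**Figure D1:**
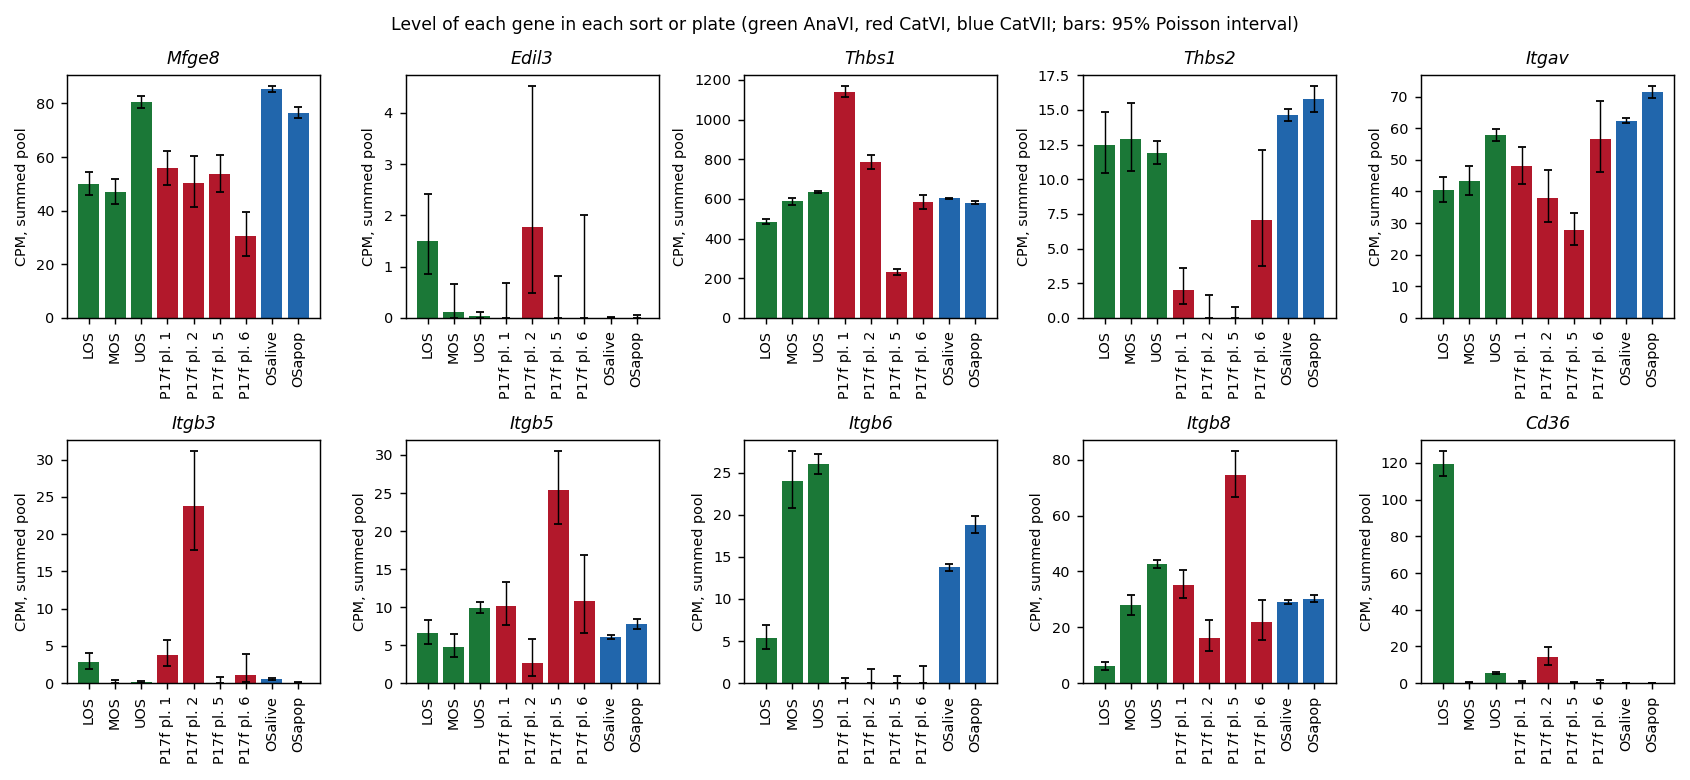
Summed level of each gene in CPM (y axes, linear from 0) in the 9 sorts and plates (x axes), with 95% Poisson intervals of the counts as error bars and colours for the stage. *Itgb6* has no bar in the 4 CatVI plates, and *Cd36* stands at 119.5 CPM in LOS, 91.02% of it from 1 cell.

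*Itgav* (ENSMUSG00000027087, chromosome 2 from 83554403 to 83637260) encodes the alpha subunit shared by these receptors and was found in 405 of 463 cells. Its level was 40.4 CPM in LOS, 43.3 in MOS, 57.8 in UOS, 47.96, 37.98, 27.8 and 56.5 in plates 1, 2, 5 and 6, 62.4 in OSalive and 71.3 in OSapop. A single cell gave 80.2% of the counts in plate 2 and 50.96% in plate 6. From UOS at 57.8 CPM down to plate 5, each pool's interval overlapped that of the next. OSapop (69.4 to 73.3) and OSalive (61.5 to 63.3) stood apart from each other and from UOS (56.1 to 59.7) by counting error. After thinning, *Itgav* was found in 82.35% of OSapop cells, 78.2% of OSalive, 78.3% of LOS, 75% of MOS and 72.1% of UOS, and in 37.5% to 53.3% of the cells of the 4 CatVI plates. Both fewer cells with the transcript and less RNA per cell lower a summed level. Here the median over *Itgav*-positive cells was 52.5 CPM in UOS, 50.01 in OSalive and 67.1 in OSapop, against 25.3 to 51.7 in the CatVI plates.

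*Itgb8* (ENSMUSG00000025321, chromosome 12 from 119121748 to 119202584), the subunit of αvβ8, was found in 325 of 463 cells, the most of the 4 beta subunits *Itgb3*, *Itgb5*, *Itgb6* and *Itgb8* (not set for transcript length). It stood at 6.07 CPM (4.68 to 7.73) in LOS, 27.9 in MOS and 42.7 (41.1 to 44.25) in UOS. In CatVI it stood at 35.2 CPM in plate 1, 16.3 in plate 2, 74.5 (66.8 to 82.95) in plate 5 and 21.7 in plate 6, and in CatVII at 28.97 CPM in OSalive and 30.2 in OSapop. LOS lay below and plate 5 above all other pools without overlap of the intervals, while MOS, OSalive and OSapop lay together.

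*Itgb6* (ENSMUSG00000026971, chromosome 2 from 60428636 to 60553035), the subunit of the epithelial αvβ6, had the sharpest pattern. It stood at 5.32 CPM (4.03 to 6.89) in LOS, 23.99 (20.8 to 27.5) in MOS, 26 (24.8 to 27.2) in UOS, 13.7 (13.3 to 14.2) in OSalive and 18.8 (17.8 to 19.8) in OSapop. In the CatVI plates it had 0 counts in all 57 cells, among 14083998 counts. The floor of 3 counts would give a summed level of 0.213 CPM over these cells and 5.26% of cells with a count. Cells with the transcript but no count can be missed at this depth. At 50000 counts per cell *Itgb6* was found in 0 of 18, 8, 15 and 12 cells of the plates, whose intervals reach 18.5% to 36.9%, against 45.05% of UOS cells (35.6 to 54.8), 40.6% of MOS (23.7 to 59.4) and 20.97% of OSalive (14.2 to 29.2). The interval of UOS lay above those of plates 1, 5 and 6 and overlapped that of plate 2, and the interval of OSalive overlapped all 4. The transcript was found in 63.4% of UOS cells, 44.7% of MOS, 33.6% of OSalive, 30.4% of OSapop and 15.4% of LOS. Of the 1802 genes at least as high as *Itgb6* in UOS, 3 (0.166%) had no count in the CatVI cells. Besides *Itgb6* these were the inner root sheath keratin gene *Krt73* and *Grem1*, which encodes an antagonist of BMPs, and both are named after their values were seen. The CatVI cells come from plates of their own, so that stage, plates and sort cannot be told apart. *Itgb8* had counts in 11, 3, 12 and 7 cells of plates 1, 2, 5 and 6.

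*Itgb5* (ENSMUSG00000022817, chromosome 16 from 33649988 to 33771137), the subunit of αvβ5, had low and broad levels. They ran from 2.65 CPM (0.972 to 5.77) in plate 2 to 10.9 in plate 6 over 8 pools, with 9.95 CPM in UOS, 6.625 in LOS, 4.80 in MOS, 6.05 in OSalive and 7.76 in OSapop. Plate 5 stood above them at 25.4 CPM (20.9 to 30.5), and 1 cell gave 42.1% of its counts. *Itgb5* was found in 58.04% of UOS cells and 40.8% of OSalive cells, and after thinning in 28.8% and 16.9%.

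*Itgb3* (ENSMUSG00000020689, chromosome 11 from 104498826 to 104561302), the subunit of the macrophage receptor αvβ3, was found in 22 of 463 cells. It had 0 counts in MOS and in plate 5, 10 counts in 4 UOS cells, 0.567 CPM in 4 OSalive cells and 3 counts in 2 of 92 OSapop cells. Of its 22 positive cells, 14 (63.6%) had more marker counts of other cell types than of the 4 keratins, against 22 (4.75%) of all 463 cells. All *Itgb3* counts of plates 1 and 2, with levels of 3.83 and 23.85 CPM, came from such cells, and their part in these levels was not tested.

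*Cd36* (ENSMUSG00000002944, chromosome 5 from 17986432 to 18094067) encodes a scavenger receptor for thrombospondins and lipids that is abundant on endothelium, fat cells and macrophages. It was found in 17 of 463 cells, of which 12 (70.6%) had more marker counts of other cell types than of keratins, and these 12 held 94.2% of its counts. LOS stood at 119.5 CPM (113.1 to 126.3), and 91.02% of this came from 1 cell with 1166 *Cd36* counts. The same cell held 306 counts of *Pecam1* and 684 of *Fabp4*, and 664 of *Krt5*. UOS stood at 5.37 CPM with 74.7% from 1 cell, which had 307 counts of *Pecam1*. MOS and plates 5 and 6 had 0 counts, and OSalive and OSapop had 41 and 4 counts in 1 cell each.

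Set per kilobase of transcript, so that genes of unlike length can be compared, the order of levels in UOS was *Thbs1* at 101.7 CPM per kb, *Mfge8* at 39.6, *Itgav* at 7.825, *Itgb6* at 5.41, *Itgb8* at 5.07, *Itgb5* at 2.99, *Thbs2* at 2.01, *Cd36* at 1.53, *Itgb3* at 0.0253 and *Edil3* at 0.00477. *Thbs1* and *Mfge8* thus lay above every receptor subunit, and *Thbs2* and *Edil3* did not. In OSalive the order was *Thbs1* at 96.8, *Mfge8* at 42.01, *Itgav* at 8.44, *Itgb8* at 3.44, *Itgb6* at 2.86, *Thbs2* at 2.47 and *Itgb5* at 1.82 CPM per kb.

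**Figure D2:**
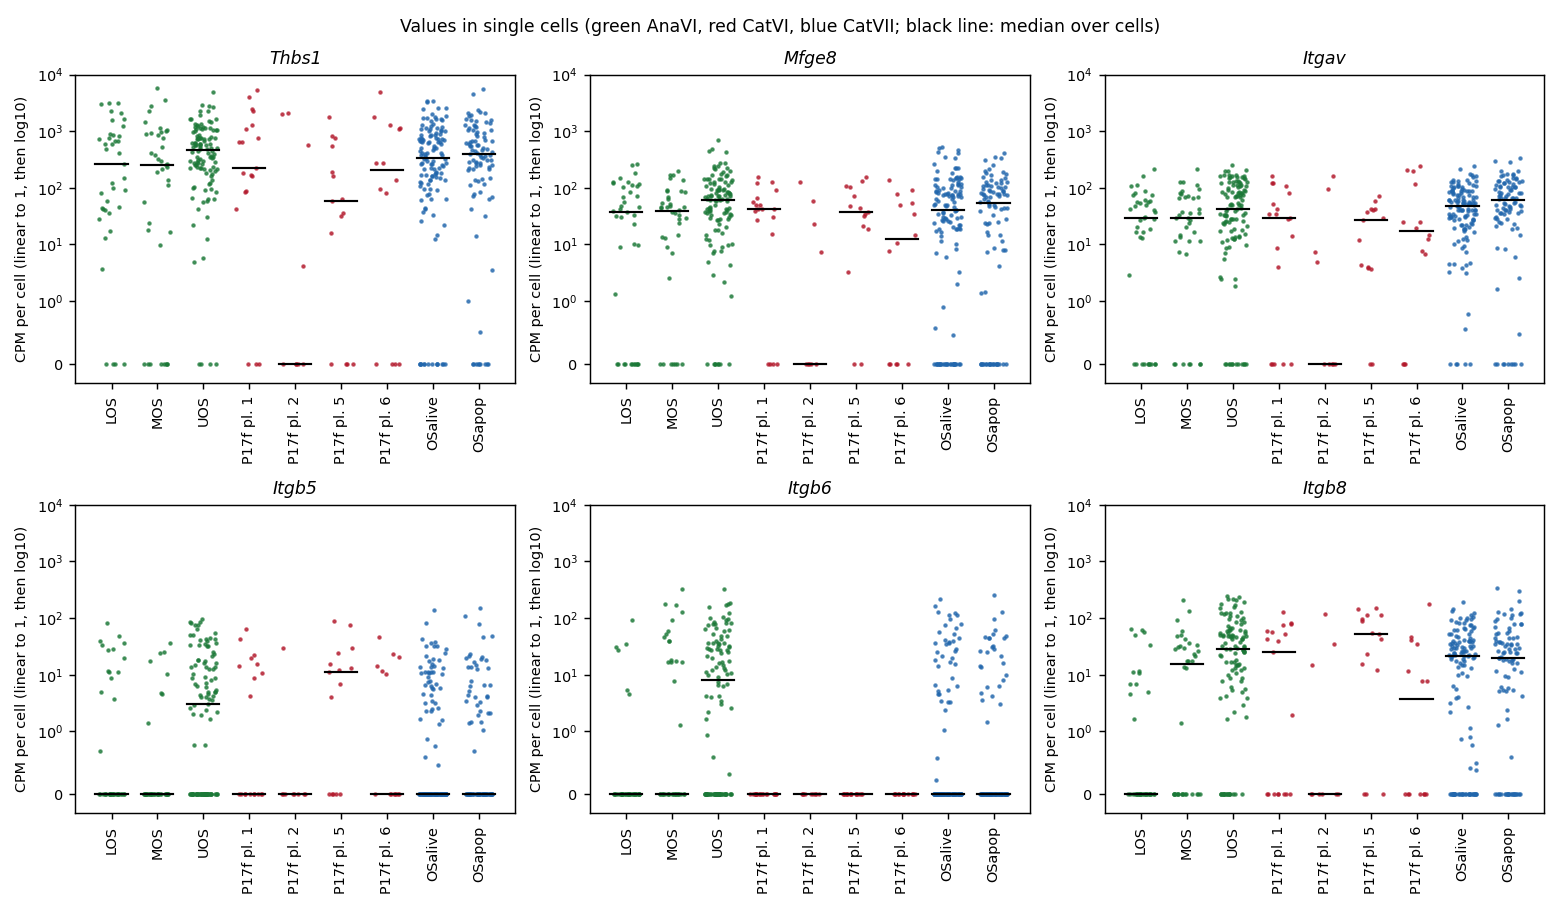
CPM of 6 genes in each of the 463 cells (y axes, linear up to 1 and log10 above; each point is 1 cell) by sort or plate (x axes), with the median over cells as a black line. All points of *Itgb6* in the 4 CatVI plates lie at 0, whereas its UOS cells reach 329 CPM and *Itgb8* in plate 5 has a median of 52.99 CPM.

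Which beta subunit accompanied *Itgav* was then read in single cells. A cell counted as positive from 1 count. Shares of positive cells are not set for transcript length, which is 8412 bases for *Itgb8*, 5784 for *Itgb3*, 4806 for *Itgb6* and 3329 for *Itgb5*. The part of length in the order of the subunits was not tested. Among *Itgav*-positive cells, *Itgb8* was the most frequent of the 4 αv partners *Itgb3*, *Itgb5*, *Itgb6* and *Itgb8* in 7 of 9 pools. It was found in 84 of 100 such cells of UOS (Clopper-Pearson interval 75.3 to 90.6%), 20 of 31 of MOS (64.5%), 75% of those of OSalive (66.3 to 82.45), 65 of 83 of OSapop (78.3%, 67.9 to 86.6), 10 of 14 of plate 1, 11 of 13 of plate 5 and 6 of 11 of plate 6. In LOS *Itgb5* was found in 11 and *Itgb8* in 10 of 29 cells, and in plate 2 *Itgb3*, *Itgb5* and *Itgb8* were each in 1 of 4. *Itgb6* was second in UOS (64%, 53.8 to 73.4) and MOS (48.4%), and behind *Itgb5* in OSalive (33.3%, 24.99 to 42.5, against 41.7%) and OSapop (32.5% against 40.96%). *Itgb3* was found in 4.0% of these cells in UOS, 2.5% in OSalive and 1.205% in OSapop. *Itgb1*, whose product also pairs with many other alpha subunits, was found in 98% of UOS, 96.7% of OSalive and 93.98% of OSapop.

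Depth moved all these shares, and thinning to 50000 counts left 23 of 39 cells of LOS, 32 of 38 of MOS, 18, 8, 15 and 12 of the plates, 85 of 92 of OSapop and all but 1 of UOS and of OSalive. *Itgb8* was then the most frequent in 6 of 9 pools, at 63.75% of the *Itgav*-positive cells in UOS (52.2 to 74.2), 45.8% in MOS, 54.6% in OSalive (44.2 to 64.8) and 55.7% in OSapop (43.3 to 67.6). In plate 5 *Itgb5* was in 5 and *Itgb8* in 4 of 8 cells. *Itgb6* was in 45% of these cells in UOS (33.9 to 56.5), 37.5% in MOS (18.8 to 59.4), 19.6% in OSalive (12.2 to 28.9) and 18.6% in OSapop (10.3 to 29.7), so that the intervals of UOS lay above those of both CatVII sorts. *Itgb5* was in 30% of UOS (20.3 to 41.3), 13.4% of OSalive (7.33 to 21.8) and 17.1% of OSapop (9.18 to 28.03), and here the intervals of UOS and OSalive overlapped slightly.

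The beta subunits were also found in cells without an *Itgav* count. At 50000 counts, *Itgb8* was in 64.5% of 31 *Itgav*-negative UOS cells (45.4 to 80.8), close to the 63.75% of the positive ones, and *Itgb6* in 45.2% against 45%. In OSalive *Itgb8* was in 40.7% of 27 negative cells (22.4 to 61.2) against 54.6%, and in OSapop in 33.3% of 15 (11.8 to 61.6) against 55.7%. For *Itgb8* the interval of the negative cells included the share of the positive cells in all 3 sorts. It did not for *Itgb5* in OSalive (29.6% of negative cells, 13.75 to 50.2, against 13.4%) and MOS (37.5%, 8.52 to 75.5, against 8.33%). In plate 6 it did not for *Itgb5* (3 of 7 negative cells against 0 of 5 positive) or *Itgb8* (0 of 7 against 3 of 5). For *Itgb1* it did not in OSalive (62.96% of negative cells, 42.4 to 80.6, against 84.5%) or in plate 5 (28.6%, 3.67 to 70.96, against 75%). In each of these cases the interval of the positive cells overlapped that of the negative cells. Median depths of positive and negative cells before thinning were 460700 and 509900 counts in UOS, 2314000 and 1857000 in OSalive and 593000 and 341800 in OSapop.

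**Figure D3:**
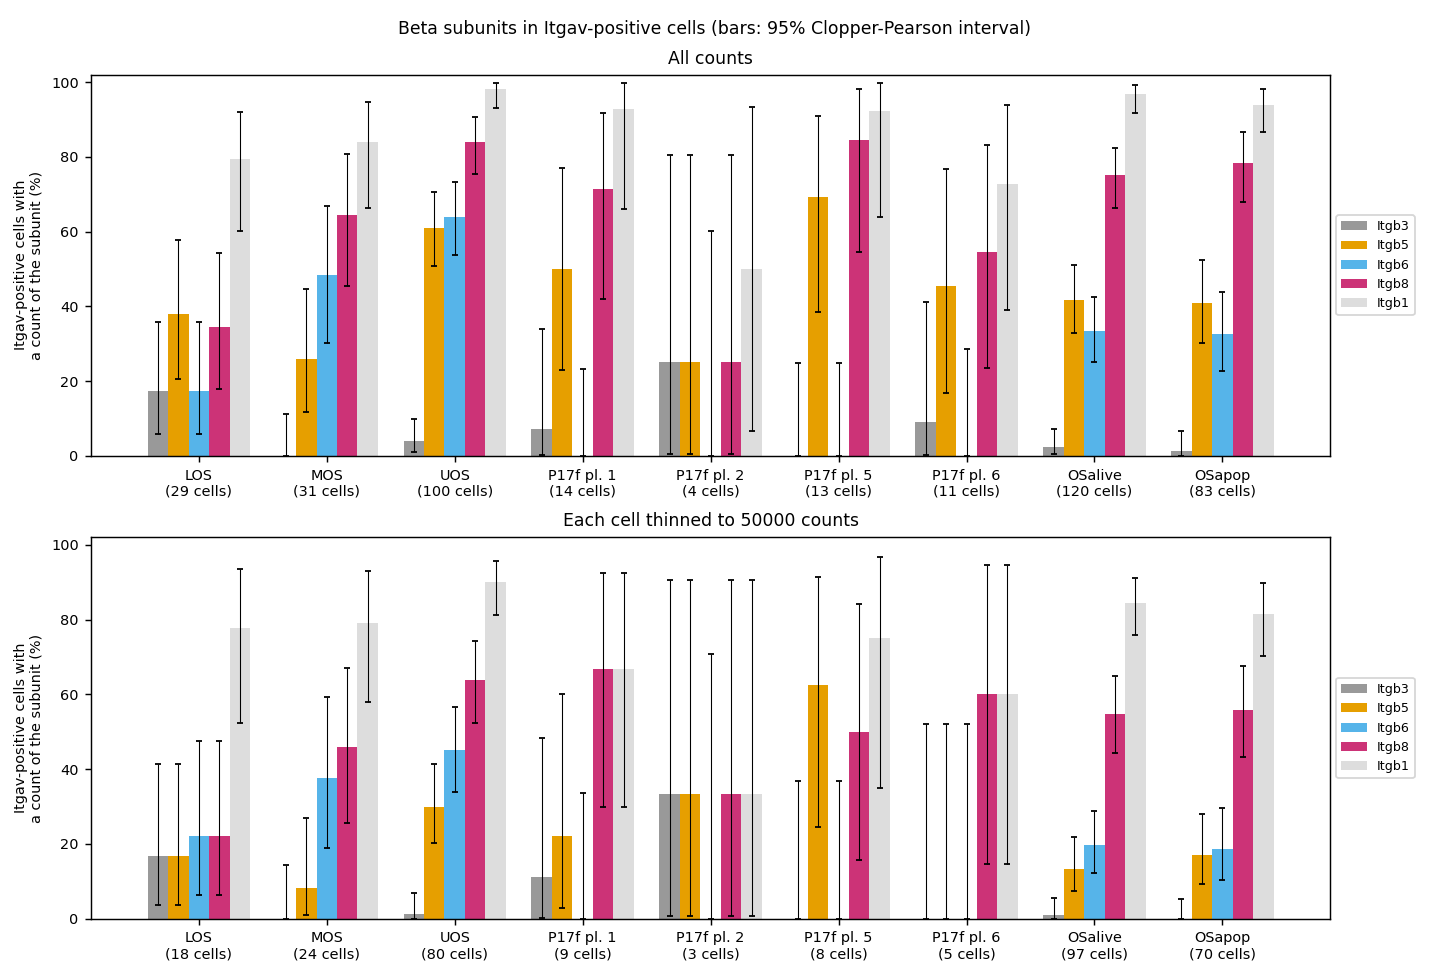
Percentage of *Itgav*-positive cells with at least 1 count of each beta subunit (y axes) by sort or plate (x axes, with the number of *Itgav*-positive cells), from all counts (top) and with each cell thinned to 50000 counts (bottom); error bars are 95% Clopper-Pearson intervals. Among the 4 subunits *Itgb3*, *Itgb5*, *Itgb6* and *Itgb8* *Itgb8* has the tallest bar in 7 of 9 pools at the top and in 6 at the bottom, and *Itgb6* is at 0 in the CatVI plates.

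Cells with more than 1 candidate partner were common in UOS and plate 5 and less so in the other pools. Of the 100 *Itgav*-positive UOS cells, 4 had none of *Itgb3*, *Itgb5*, *Itgb6* and *Itgb8*, 20 had 1, 37 had 2, 37 had 3 and 2 had all 4. In OSalive the numbers were 12, 47, 48, 12 and 1, in OSapop 12, 32, 22, 17 and 0, in MOS 4, 14, 10, 3 and 0 and in LOS 12, 7, 7, 2 and 1. In plate 1 the numbers were 2, 6, 6, 0 and 0, in plate 2 2, 1, 1, 0 and 0, in plate 5 2, 2, 9, 0 and 0 and in plate 6 3, 5, 2, 1 and 0. At 50000 counts they were 14, 29, 29, 7 and 1 in UOS and 35, 41, 18, 3 and 0 in OSalive. *Itgb6* and *Itgb8* were together in 56 of 100 cells of UOS, 10 of 31 of MOS, 30 of OSalive, 22 of 83 of OSapop and 4 of 29 of LOS. *Itgb6* without *Itgb8* was rarer, with 8, 5, 10, 5 and 1 cells in the same order.

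Ranked within each cell by counts per kilobase, *Itgb8* was highest in 62 *Itgav*-positive cells of OSalive, 41 of 83 of OSapop, 39 of 100 of UOS, 8 of 14 of plate 1 and 8 of 13 of plate 5. *Itgb6* was highest in 34 cells of UOS, 24 of OSalive and 16 of OSapop, and in MOS it led with 13 of 31 cells against 11 for *Itgb8*. In LOS *Itgb5* led with 8 of 29 cells, 12 cells had none of the 4, and in plate 6 *Itgb5* and *Itgb8* led in 4 cells each. Depth changed this ranking. At 50000 counts *Itgb6* led in 26 and *Itgb8* in 23 of 80 UOS cells, *Itgb5* led in 4 and *Itgb8* in 2 of 8 cells of plate 5, and *Itgb6* and *Itgb8* led in 8 cells each of MOS, while *Itgb8* still led in OSalive with 35 against 15 for *Itgb6* and in OSapop with 28 against 11. The summed counts per kilobase gave a related order. *Itgb6* made up 51.2% of the 4 subunits in MOS, 40.1% in UOS and 39.7% in OSapop, and *Itgb8* 33.98%, 37.6% and 36.5%. *Itgb8* made up 41.9% in OSalive, 52.9% in plate 1 and 53.8% in plate 5, while *Itgb5* made up 46.3% in LOS and 54.1% in plate 6. The sum of the 4 stood at 1.725 times *Itgav* per kilobase in UOS, 1.66 times in MOS, 0.973 times in OSalive, 1.02 times in OSapop and 4.38 times in plate 5.

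**Figure D4:**
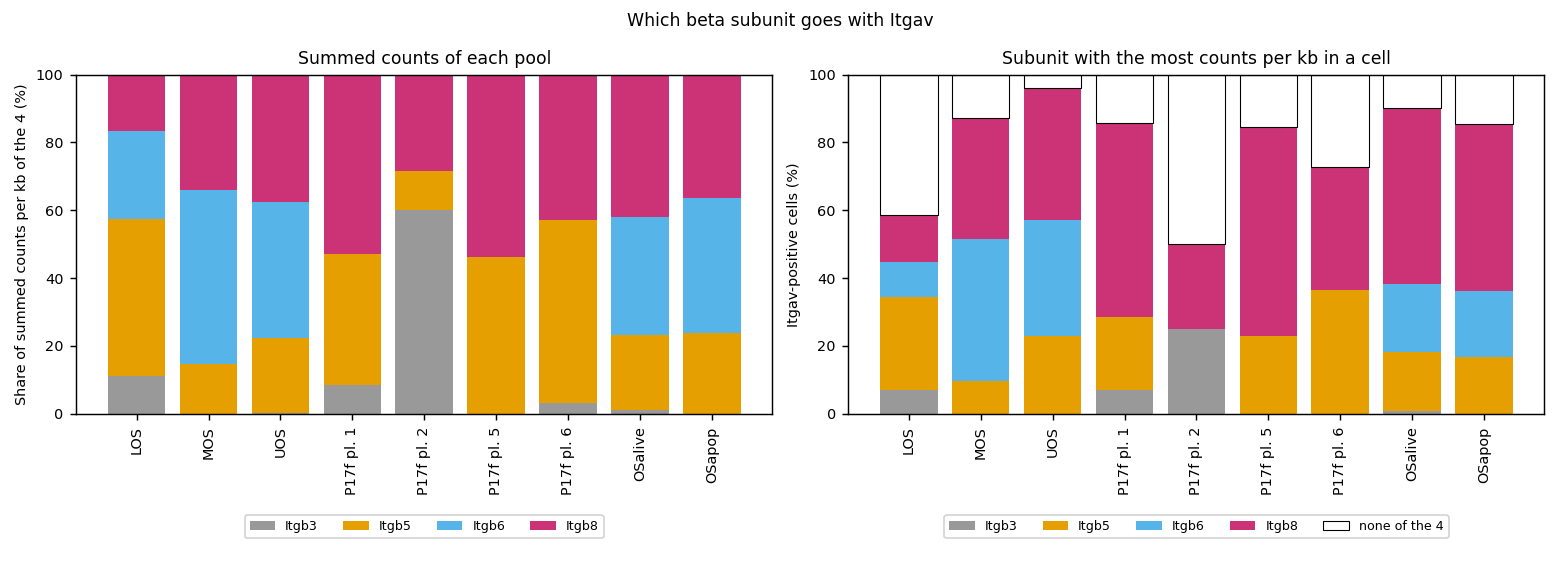
Left, share of each of 4 beta subunits in their summed counts per kilobase (y axis, %); right, percentage of *Itgav*-positive cells in which each had the most counts per kilobase (y axis), by sort or plate (x axes). *Itgb6* is the largest part at left in MOS, UOS and OSapop, *Itgb8* leads in the most cells at right in OSalive, OSapop, UOS and plates 1 and 5 (not in UOS and plate 5 with cells thinned to 50000 counts), and *Itgb6* is missing in CatVI.

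Ligand and receptor transcripts were next counted in the same cells, from all counts without thinning, although the pools differ in depth. Taken singly, *Mfge8* was in 92.9% of UOS and 79.2% of OSalive cells, and *Thbs1* in 96.4% and 88.8%. Whether transcripts share cells more often than their single shares give was not tested. *Mfge8* and *Thbs1* were both found in 90.2% of the cells of UOS, 94 cells of OSalive (75.2%), 70 of 92 of OSapop (76.1%), 27 of 38 of MOS and 26 of 39 of LOS. *Mfge8* with *Itgav* and *Itgb3* or *Itgb5*, the parts of its classical receptors, was found in 56 UOS cells (50%), 36 OSalive cells (28.8%), 27 OSapop cells (29.35%), 7 MOS cells and 10 LOS cells. In the CatVI plates it was found in 36.8% of plate 1, none of plate 2, 53.3% of plate 5 and 21.4% of plate 6. *Thbs1* with *Itgav*, *Itgb3* and *Cd36*, the thrombospondin complex of macrophages, was found in 2 cells of LOS and 2 of UOS and in no other pool.

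Levels were then compared in 7 pairs of pools. The ratio of CPM was taken as log2 and set relative to the median log2 ratio of all genes with at least 100 counts over the pair, which stood between -0.325 and 0.119, so that 0 is the typical gene. A gene past 1 or -1 on this centred scale is called past 2-fold. There is no test behind these calls, since each pool is 1 sample, and the shares of all genes past 2-fold are given beside them.

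In LOS relative to UOS, the lower against the upper-middle ORS of the same stage, 8 members were measured and 3 lay past 2-fold. *Itgb8* was 7.24-fold lower (log2 -2.86, counting interval -3.23 to -2.50), *Itgb6* was 5.03-fold lower (-2.33, -2.74 to -1.95) and *Cd36* was 21.6-fold higher, the last with 91.02% of its counts from 1 cell. Of all genes, 13.4% were past 2-fold higher and 15.0% lower. LOS also held more cells with more counts of other types' markers than of the 4 keratins, and without them *Itgb8* stood at -2.24 and *Itgb6* at -1.58, both still past 2-fold. *Mfge8* (-0.73), *Thbs1* (-0.43), *Itgav* (-0.56) and *Itgb5* (-0.63) were lower by less, and the members' median was -0.59. With cells thinned to 50000 counts *Itgav* stood at 0.018 and *Thbs2*, at 0.031 before, at 1.45.

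In MOS relative to UOS, which share the label upper-middle ORS, 1 of 8 measured members lay past 2-fold, against 11.3% of all genes higher and 16.8% lower. This was *Cd36*, with 0 counts in MOS and at least 12.4-fold lower when MOS is set to 3 counts, and 340 of its 367 UOS counts lay in 2 cells rich in markers of other types. *Itgb6* (0.19), *Itgb8* (-0.31), *Thbs1* (0.20) and *Itgav* (-0.11) lay near the typical gene. Without the top cell of each pool *Thbs2* stood at -2.84 and *Itgb5* at -1.42, against 0.42 and -0.75 with it. With cells thinned to 50000 counts *Itgb8* stood at -1.20. The members' median was -0.21.

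In the CatVI plates 1 and 2, labelled Phago and alive, relative to UOS, 2 of 8 measured members were past 2-fold, with 19.4% of all genes higher and 23.9% lower. *Itgb6* was at least 57.98-fold lower, with 0 against 1777 counts, and *Thbs2* was 7.23-fold lower (log2 -2.855, -3.86 to -2.01) on 11 counts. *Thbs1* was higher in the summed counts by 0.92 (0.89 to 0.96), just short of 2-fold, and at 1.09 with plate 1 alone. Its median over cells went the other way, at 227.5 CPM in plate 1 and 0 in plate 2 against 462 in UOS. *Itgav* (-0.15), *Mfge8* (-0.36), *Itgb8* (-0.31) and *Itgb5* (-0.10) were within 2-fold with the plates summed. Without plate 1 *Itgb5* stood at -1.31. *Cd36* stood at -0.079 with the plates summed, at 1.99 without plate 1 and at -3.64 without plate 2, on 34 counts in 1 cell of each plate. The members' median was -0.23.

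OSalive relative to UOS sets the upper ORS of CatVII against the upper-middle ORS of AnaVI, so that stage and region label change together. Here 9 members were measured and 2 lay past 2-fold, against 15.9% of all genes higher and 19.5% lower. These were *Itgb3*, at 4.85-fold higher with 80 and 74 of its OSalive counts in 1 cell each, and *Cd36*, at 30.1-fold lower. Neither was measured past 100 counts once the top cell of each pool was left out. *Itgav* (0.43), *Mfge8* (0.41), *Thbs1* (0.25) and *Thbs2* (0.62) lay above the typical gene. *Itgb6* (-0.60), *Itgb5* (-0.39) and *Itgb8* (-0.23) lay below it, and the members' median was 0.25. With the plain CPM ratio, not centred, *Thbs1* stood at -0.071.

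In OSapop relative to OSalive, 1 of 8 measured members lay past 2-fold, against 8.81% of all genes higher and 12.8% lower. It was *Itgb3*, at 0.0411 against 0.567 CPM. The abundant members were near the typical gene, with *Itgav* at 0.074, *Itgb8* at -0.057, *Thbs1* at -0.17, *Mfge8* at -0.28, *Itgb5* at 0.24 and *Itgb6* at 0.33, and the median was -0.035. *Itgb6* stood at 0.004 without the top cell of each pool and at -0.59 with cells thinned to 50000 counts, and *Thbs2* moved from -0.012 to -1.90.

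In CatVI plate 5, labelled Phago and apop, relative to the Phago plates labelled alive, 3 of 5 measured members lay past 2-fold, with 14.6% of all genes higher and 17.7% lower. *Thbs1* was 3.94-fold lower (log2 -1.98, -2.07 to -1.88), *Itgb5* was 3.62-fold higher (1.86, 1.399 to 2.33) and *Itgb8* was 2.87-fold higher (1.52, 1.275 to 1.77). *Itgav* (-0.50) and *Mfge8* (0.18) were not past it. The keratin genes *Krt14* and *Krt17* were also higher in plate 5, by 2.285 and 2.75, plate 5 held no cell rich in other markers, and plates 1 and 2 held 2 and 3 of them. Without these cells *Thbs1* was at -2.18, *Itgb5* at 1.80 and *Itgb8* at 1.32, all still past 2-fold. Without plate 1, *Itgb5* stood at 3.10 and *Itgb8* at 2.03.

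In plate 6, labelled NonPhago and apop, relative to plate 5, 3 of 5 measured members were past 2-fold, against 11.7% of all genes higher and 16.3% lower. *Thbs1* was 3.02-fold higher (log2 1.59, 1.47 to 1.72), *Itgav* was 2.43-fold higher (1.28, 0.89 to 1.67) and *Itgb8* was 2.87-fold lower (-1.52, -2.03 to -1.05). The *Itgav* value rested on 1 cell with 50.96% of the plate's counts and stood at 0.76 without the top cell of each plate. Plate 5 is part of both this comparison and the one before.

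**Figure D5:**
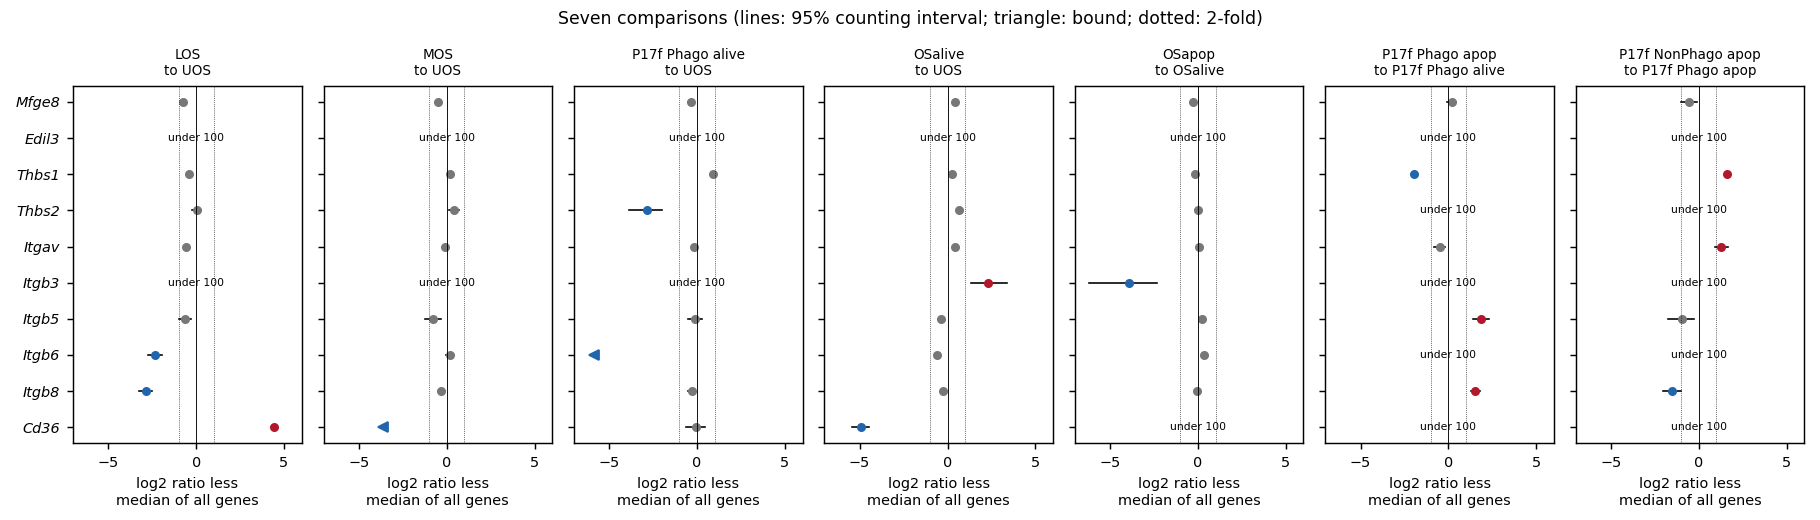
Log2 ratio of CPM less the median of all genes (x axes) for each gene (y axis) in 7 comparisons, with 95% counting intervals as lines, red for 2-fold higher or more, blue for 2-fold lower or more, grey for less, and a triangle for a bound against 0 counts. *Itgb6* is 5.03-fold lower in LOS and at least 57.98-fold lower in CatVI plates 1 and 2 than in UOS, and genes under 100 counts carry no point.

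Other genes of the αv pathway were read from lists fixed by name. Of 20 other integrin subunits, 8 were measured in LOS relative to UOS. Past 2-fold, 1 was higher and 3 lower, against 13.4% and 15.0% of all genes. In CatVI plates 1 and 2 relative to UOS, 2 of 9 were higher and 3 lower, against 19.4% and 23.9% of all genes. In OSalive relative to UOS 4 of 11 were higher and 2 lower, against 15.9% and 19.5%. The laminin receptor subunit genes *Itga3* and *Itgb4* stood at 107.2 and 288.6 CPM in UOS, and the collagen receptor gene *Itga1* was at 39.4 CPM. *Itga3* and *Itga1* were lower in CatVI plates 1 and 2 than in UOS, by log2 -1.765 and -2.68, while *Itgb1* lay at 0.24. *Itgb1* lay between -0.98 and 0.48 over the 7 comparisons.

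Of 15 genes of αv ligands and latent TGF-β, 11 were measured in OSalive relative to UOS, with a median of 1.08. Past 2-fold, 6 were higher and none lower, against 15.9% and 19.5% of all genes. The 6 included the matrix protein genes *Ccn1* (3.29) and *Ccn2* (2.31), *Tgfb3* (2.31) and *Tgfb1* (1.08), which encode ligands held latent until released. In OSapop relative to OSalive 4 of 11 were lower and none higher, against 12.8% and 8.81% of all genes. Among the lower, *Fn1*, the gene of fibronectin, was at -1.99 and *Ccn1* at -1.26. In CatVI plates 1 and 2 relative to UOS, 4 of 10 were higher, *Fn1* (2.10) and the gene of tenascin C, *Tnc* (1.67), among them. A further 4 were lower, with *Postn*, the gene of periostin, at -2.785. Of all genes, 19.4% were higher and 23.9% lower in this comparison. *Ccn1* and *Ccn2* had 0 to 0.883 CPM in the 4 CatVI plates and 104.9 and 92.5 CPM in OSalive. *Ltbp1*, which encodes a protein that anchors latent TGF-β in the matrix, was at 40.4 CPM in UOS, 33.8 in OSalive and 5.69 in LOS, and at 0 in plates 2 and 5. In LOS, *Fbn1* (263.5 CPM) and *Lrrc32* (38.6 CPM) stood beside fibroblast markers that summed to 1405 CPM over 6 of 6 genes and pericyte and muscle markers that summed to 407 CPM, and their part was not tested.

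Of the other thrombospondin genes and receptors, *Cd47* and *Lrp1* were well expressed, at 69.5 and 111.6 CPM in UOS and 98.8 and 133.9 CPM in OSapop. They encode the don't-eat-me signal that thrombospondin binds and a large endocytic receptor. No gene of this list was past 2-fold in LOS or OSalive relative to UOS or in OSapop relative to OSalive, and 4 of 6 were measured in each. Of all genes, 13.4%, 15.9% and 8.81% were higher in these comparisons and 15.0%, 19.5% and 12.8% lower. *Cd47* was lower in CatVI plates 1 and 2 than in UOS by -1.105, *Lrp1* was lower in plate 6 than in plate 5 by -1.39, and *Thbs3*, named after its values were seen, had 0 counts in MOS and was lower there than in UOS, at -3.46 with MOS set to 3 counts. Of 11 integrin adaptors and activators, all were measured in OSapop relative to OSalive and none was past 2-fold there. In MOS relative to UOS 3 of 11 were higher, *Tln2* (1.35), *Ilk* (1.26) and *Pxn* (1.085), which encode a talin, integrin-linked kinase and paxillin, and the median was 0.92. None of the 11 was lower, against 11.3% of all genes higher and 16.8% lower.

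Over the 9 pools, the genes whose log2(CPM + 1) followed *Itgav* most closely were *Socs6* (Pearson r 0.978), *Hs1bp3* (0.96) and *Mrtfa* (0.953), out of 9230 genes with a symbol and at least 1000 counts. For *Mfge8* they were *Adipor1* (0.958), *Zfp760* (0.934) and *Gak* (0.914), and for *Thbs1* they were *Smarcd2* (0.96), *1700017B05Rik* (0.94) and *Trappc14* (0.939). Values of 0.9 or more were reached by 15 genes for *Itgav*, 4 for *Mfge8* and 13 for *Thbs1*. The points share their libraries' depth, and the values are a description.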

How the data were processed

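Single hair follicle cells from 9 sorts or plates of wild type mice were measured by Smart-seq2. According to the authors, reads were trimmed, aligned with STAR 2.6 to mm39, quantified with Salmon 1.4.0 and summed per gene, and the deposited table holds these estimated counts without normalization; ERCC spike-ins were kept apart. The counts were rounded to whole numbers. One unnamed gene took 65.5% of the counts of the cells used, which lowers the CPM of every other gene. Symbols, positions and lengths of canonical transcripts came from the GENCODE annotation of GRCm39, which held 93.3% of the identifiers; the identifiers without a symbol took 79.2% of the counts and stayed in the CPM total.

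Cells with at least 2000 detected genes were summed per pool (39 of LOS, 38 of MOS, 112 of UOS, 19, 9, 15 and 14 of P17f plates 1, 2, 5 and 6, 125 of OSalive and 92 of OSapop) and scaled to 1000000 gene counts (CPM). Of 160 well labels that occur in 2 cells of 1 sort, 99 had both cells passing; no 2 cells with counts had identical values, and all were kept. The authors removed wells with several cells by quantitative PCR, and no doublet caller was run. A cell whose labels name conflicting stages was left out, and 1 labelled cell had no column. No column of the table was left unused for want of a sample. No test was made, since each pool is 1 sample. A pool with 0 counts was set to 3 counts in ratios, and 95% intervals were exact (Poisson, Clopper-Pearson, or the binomial split of both counts). Genes outside the 10 were named if listed and at 20 CPM in a pool or past 2-fold in 2 of the 7 comparisons, or if among the 3 most correlated with *Itgav*, *Mfge8* or *Thbs1*. The members and lists were chosen with earlier results of these data known. Alternatives concerned scaling, filters, depth and single plates, and 2 that leave out cells were added after the data were seen. The ratios were tested on simulated pool sums with known changes. These were Poisson draws without spread between cells, so they do not cover sums that rest on single cells. Python 3.11.15, numpy 2.4.6, pandas 2.3.3, scipy 1.17.1 and edgeR 4.0.16 in R 4.3.3 were used.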

Additional observations from a re-analysis of the deposited data

Results flagged for a closer look

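One cell of the table carries the name of the OSapop sort and a stage label of CatVI, and was left out of every pool. It had counts of *Thbs1*, at 2055 CPM in 52544 gene counts, and 0 counts of the other 9 genes. It stands here because a cell outside the comparisons held a signal above the limit that a count of 0 allows, which is 57.1 CPM in this cell. The highest single cells of CatVI plate 1 and of OSapop reached 5378 and 5498 CPM of *Thbs1*.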

How the results depend on the processing

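No member past 2-fold changed sign under any alternative. The number of members past 2-fold did move. It was 3 in LOS, 1 in MOS, 2 in the Phago alive plates and 2 in OSalive, each relative to UOS, 1 in OSapop relative to OSalive, 3 in plate 5 relative to the Phago alive plates and 3 in plate 6 relative to plate 5. With a minimum of 1 count in place of 100 these became 6, 3 and 4 for LOS, MOS and the Phago alive plates, 2 for OSapop, and 5 each for plates 5 and 6. MOS had 2 with the plain CPM ratio, 2 with a mean over cells and 2 without the top cell of each pool. Thinned to 50000 counts, fewer members reached 100 counts, and the number was 1 of 5 for the Phago alive plates, 0 of 7 for OSalive, 0 of 6 for OSapop, 1 of 2 for plate 5 and 1 of 1 for plate 6. The Phago alive plates had 4 without plate 1 and 4 without plate 2. Without the cells rich in markers of other types MOS, OSalive and OSapop had 0 each, and without the top cell OSalive had 0. These last 2 alternatives were chosen after seeing the data. For the values that carry the text, *Itgb6* and *Itgb8* in LOS ran from -2.64 to -1.58 and from -3.30 to -2.24. For plate 5, *Thbs1* ran from -2.34 to -1.37, *Itgb5* from 1.36 to 3.10 and *Itgb8* from 1.24 to 2.03. Of all recomputed values of single members and of shares, 33.7% moved beyond the counting interval of the reported value, and the cause was not tested. No paired analysis was possible because each sort or plate is 1 pool, the replicate numbers only name cells, and no test was made. Depth limits the low members most: a pool's floor of 3 counts stood at 0.0104 CPM in OSalive and 1.63 CPM in plate 6.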
